A study of Saccharomyces cerevisiae with 10 samples.

Results

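The transcripts described here are 578 Xrn1-sensitive unstable transcripts (XUTs) of *Saccharomyces cerevisiae* that were nearly absent from a strain in which the nuclear exosome subunit Rrp6 was present. They are the XUT rows of the count tables with 5 or fewer counts summed over both libraries of the *rpb1-84* strain, and they make up 34.9% of the 1655 XUT rows. The other 1077 XUTs had more than 5 counts there. The *rpb1-84* libraries chose the members, so their low level in that strain is a description and was not tested. Of the members, 230 had 0 counts over the *rpb1-84* libraries, 89 had 1, 91 had 2, 69 had 3, 58 had 4 and 41 had 5. The 41 XUTs just inside the limit had a median of 3 counts in WT, one of 21 in *rrp6∆* and one of 10 in *rpb1-84 rrp6∆*, and the 38 XUTs just outside it, with 6 counts, had medians of 3, 35 and 14.5.

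The study asked how altered assembly of RNA polymerase II changes non-coding RNA levels, and whether Rrp6 is involved. RNA was measured with QuantSeq, which sequences 1 tag near the 3′ end of a transcript, in 5 strains with 2 libraries each, from cells grown in YPD at 30 °C to an OD600 of about 0.8. All strains but *rpb4∆* were MATα cells with *his3-∆200*, *leu2-3*,*112*, *trp1-∆63*, *ura3-52* and *rpb1-∆187::HIS3*, and lived on an *RPB1* or *rpb1-84* copy on a plasmid (pYEB220 or pYEB220-84). WT had the *RPB1* plasmid and is labelled as the WT of the *rrp6* experiment. The WT libraries that the study set against *rpb1-84* are not used here. The *rpb1-84* strain had the mutant plasmid and *RPB4::TAP::TRP1*, a tag that no other strain carried. The *rrp6∆* and *rpb1-84 rrp6∆* strains had *rrp6∆::KanMX4* with the *RPB1* and the *rpb1-84* plasmid, respectively. The *rpb4∆* strain differed in background: MATa, *his3-∆1*, *leu2-∆0*, *met15-∆0*, *ura3-∆0*, *rpb4∆::kanMX4*, with no *RPB1* plasmid listed. The mutant Rpb1 was thus always made from a plasmid, and each genotype was 1 strain. The effects of the *TAP* tag and of the *rpb1-84* allele cannot be told apart in the strain that chose the members.

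XUTs are non-coding RNAs, many of them antisense to genes, that were defined by their build-up in cells without Xrn1, the cytoplasmic 5′ to 3′ exonuclease. Rrp6 is a 3′ to 5′ exonuclease of the nuclear exosome. It trims and degrades nuclear RNAs, including those ended by the Nrd1-Nab3-Sen1 (NNS) termination complex and tailed by the TRAMP polyadenylation complex, whereas RNAs that escape to the cytoplasm meet decapping, Xrn1 and nonsense-mediated decay. The Rpb4/7 stalk of RNA polymerase II joins the enzyme late in its assembly, and the *rpb1-84* mutation lies in the foot of the enzyme and impairs that step.

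Libraries held from 1415496 to 7268211 counts. The *rrp6∆* strain was sequenced to 11188007 counts in all and *rpb1-84* to 10842277, against 5893662 for WT and 3347124 for *rpb4∆*, so a XUT at a given level was harder to see in the last 2 strains. The *RRP6* row (YOR001W, R64 chromosome XV, 326832 to 329033) was counted in every library. The WT libraries gave 231 and 171 counts, the *rrp6∆* ones 572 and 548, and the *rpb1-84 rrp6∆* ones 290 and 176. Its log2 fold change against WT was 0.24 in *rrp6∆* (edgeR adjusted p = 0.060) and -0.70 in *rpb1-84 rrp6∆* (edgeR adjusted p = 1.1e-05), both within 1 in size. Where in the gene the tags lie is not known from a count per row, so the deletion was not checked by them and strain names are used as labelled. *RPB4* (YJL140W, chromosome X, 150961 to 151626) had 7 and 4 counts in *rpb4∆* and 606 and 508 in WT. It had 33 and 59 in *rpb1-84*, the strain with the tag on *RPB4* that chose the members, and 1140 and 866 in *rpb1-84 rrp6∆*, which has no tag. Replicates differed beyond counting error across all features (chi-square per feature 4.31 in *rrp6∆* and 1.46 in WT). Over the 135 members with 20 or more counts in *rrp6∆* it was 1.32. This value grows with the counts, so it does not compare the spread of members with that of all features, or of 1 strain with another. With 2 libraries against 2, an exact permutation test of 1 value cannot give a p below 0.333, so none is printed for such values.

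The number and letter that open a XUT identifier are not explained in the files, which hold no positions for these rows. Over the 16 opening numbers, the count of XUT rows followed the length of the R64 chromosome of that number (Pearson r = 0.981 over 16 numbers, a description). Members were 34.3% of the XUTs with an F and 35.6% of those with an R, and from 24.8% (number 13) to 45.5% (number 6) of the XUTs with 1 opening number. The members were thus drawn from all numbers and from both letters.

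Summed over all 578 members, with no filter, the level was lowest where the rule placed it and highest in *rrp6∆*. The members together took 90.1 and 81.6 counts per 1000000 counts of a library (CPM) in the *rpb1-84* libraries, 209 and 201 in WT, 127.4 and 127.2 in *rpb4∆*, 968 and 887 in *rrp6∆*, and 564 and 528 in *rpb1-84 rrp6∆*. The means were 205 CPM ± 5.80 (SD, n = 2) in WT, 927 ± 57.2 (SD, n = 2) in *rrp6∆* and 546 ± 26.0 (SD, n = 2) in *rpb1-84 rrp6∆*. No strain overlapped another in this sum. The mean of *rrp6∆* was 4.52 times that of WT, the mean of *rpb1-84 rrp6∆* was 2.66 times that of WT, and *rpb1-84 rrp6∆* stood at 0.589 of *rrp6∆*. Counted relative to ORF counts instead, the ratio of *rrp6∆* to WT was 5.83. For the other 1077 XUTs the 3 ratios were 2.16, 1.69 and 0.779, and no test was made between these lists, whose members were sorted by level. In bulk RNA, fewer cells making a transcript and fewer copies per cell cannot be told apart.

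**Figure D1:**
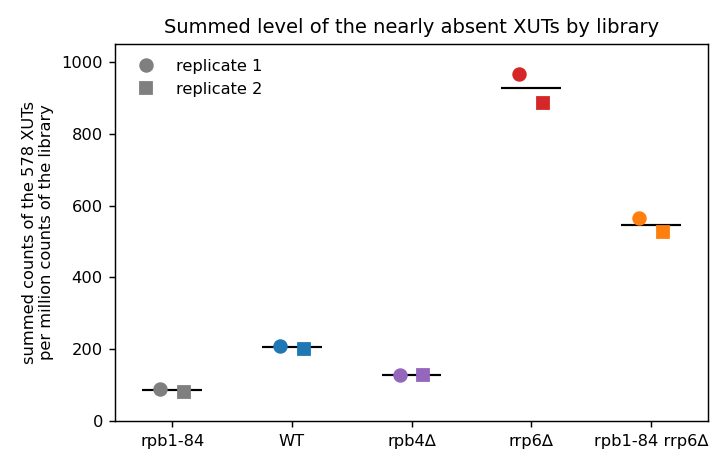
Counts of all 578 XUTs summed per library, in CPM (vertical axis, from 0), for the 5 strains. Points are libraries and bars are strain means. The *rrp6∆* libraries stand at 968 and 887, the *rpb1-84 rrp6∆* libraries at 564 and 528, and all other libraries at or below 209.

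Set side by side, the member sum rose from a mean of 85.8 CPM in *rpb1-84* to 546 in *rpb1-84 rrp6∆*, a ratio of 6.36, but the rule held the first value down, so this ratio was not tested. The ratio of *rpb1-84* to WT, 0.419, is fixed by the same choice. This WT is labelled for the *rrp6* experiment, and the own WT of *rpb1-84* is not used here. In neither ratio can experiment, the *TAP* tag and the choice be told apart from the genotype. The *rpb4∆* libraries stood at 0.621 of WT for the members and 0.607 for the other XUTs. That strain has another background, its own WT is not used here, and strain background and *RPB4* cannot be told apart.

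Most single members stayed near the limit of detection. Over all 10 libraries, 68 members (11.8%) had no count at all, 175 had 1 to 9 counts, 295 had 10 to 99 and 40 had 100 or more. Taking more than 5 counts over both libraries of a strain as detected, the minimum that the rule used, 64 members (11.1%) were detected in WT, 305 (52.8%) in *rrp6∆*, 190 (32.9%) in *rpb1-84 rrp6∆* and 13 (2.25%) in *rpb4∆*. With the minimum scaled to each strain's depth, these counts became 148, 305, 224 and 77. The low counts of WT and *rpb4∆* thus moved with depth, whereas *rrp6∆* kept the largest number. The median member had 1 count in WT, 6 in *rrp6∆*, 3 in *rpb1-84 rrp6∆* and 0 in *rpb4∆*. In *rrp6∆*, 47 members reached 50 counts and 18 reached 100, against 20 and 6 in *rpb1-84 rrp6∆*.

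**Figure D2:**
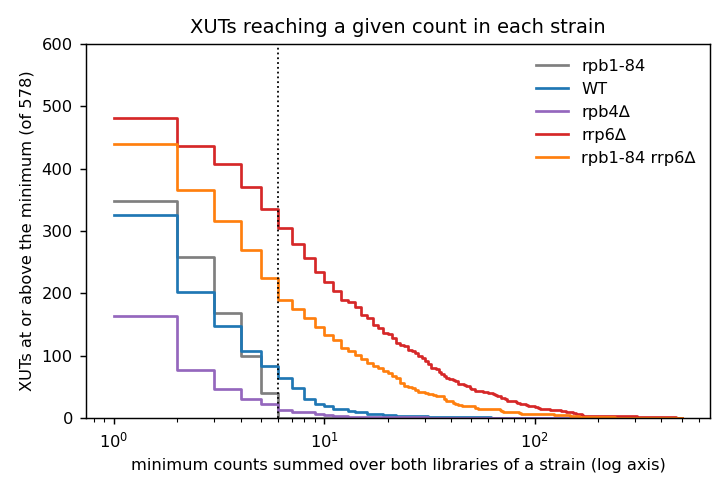
Number of the 578 XUTs (vertical axis) that reach a given minimum of counts summed over both libraries of a strain (horizontal axis, log scale), 1 line per strain, with the limit of the rule dotted. At more than 5 counts the lines stand at 305 for *rrp6∆*, 190 for *rpb1-84 rrp6∆*, 64 for WT, 13 for *rpb4∆* and, by the rule, 0 for *rpb1-84*.

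Sorted by where they were detected, the members fell into groups of unequal size. In no strain were 263 detected. A further 246 (42.6%) were detected in a strain labelled *rrp6∆* alone, namely 125 in both *rrp6∆* and *rpb1-84 rrp6∆*, 115 in *rrp6∆* and not in the double mutant, and 6 in the double mutant and not in *rrp6∆*. With minimums scaled to depth this group held 156 members (27.0%), so part of it rested on the shallower WT and *rpb4∆* libraries. Detected both in WT or *rpb4∆* and in a strain labelled *rrp6∆* were 65 members, or 159 with scaled minimums.

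The 6 members seen in *rpb1-84 rrp6∆* and not in *rrp6∆* (10R284, 12F215, 1R107, 5F115, 7F236 and 7R184) reached at most 10 counts there and at most 5 in *rrp6∆*. The 4 seen in WT or *rpb4∆* alone (14R44, 16F155, 5F117 and 6R94) reached at most 10 counts in WT and at most 12 in *rpb4∆*. The counts were also spread unevenly, the 50 members with most counts in *rrp6∆* holding 53.4% of the member counts there and the first 5 of them 15.5%.

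The strictest silence was found in 148 members with 0 counts in all 6 libraries of *rpb1-84*, WT and *rpb4∆*. Of these, 68 had no count in the *rrp6∆* or *rpb1-84 rrp6∆* libraries either, 17 had more than 5 counts in *rrp6∆* and 4 had more than 5 in *rpb1-84 rrp6∆*. The 5 with most counts in *rrp6∆*, named here after their values were seen, were 8F76 with 15 and 14 counts, 3R8 with 9 and 13, 4F350 with 6 and 14, 12F216 with 11 and 7, and 16F311 with 7 and 7. A count of 0 over WT allows up to 3 counts, or 0.509 CPM, and over *rpb1-84* up to 0.277 CPM. These floors and all counting intervals below cover counting error only.

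To ask which members rose without Rrp6, the WT, *rrp6∆* and *rpb1-84 rrp6∆* libraries were fitted together with edgeR over all rows that passed its filter on low counts. The *rpb1-84* libraries were left out of the fit. A row was called when its absolute log2 fold change passed 1 and its adjusted p was below 0.1. Of the 578 members, 113 were tested and 465 had too few counts. Among the 113, 96 had no WT library at the filter's cutoff of 2.04 CPM and 8 had both, so most members came into the test through the strains labelled *rrp6∆* and had to differ. Their counts and medians below describe the tested members and do not stand for all 578.

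In *rrp6∆* against WT, 96 members were called higher and 0 lower, where 32.2% of all 9197 rows tested were called higher and 6.75% lower. At an unadjusted p under 0.05, edgeR and DESeq2 found 0 members lower, and DESeq2 called 76 higher and 0 lower. The called members rose by log2 fold changes of 1.03 to 7.22, with 66 above 2 and 44 above 3. The median over the 113 members was 2.48, or 2.24 with members at 0 in WT set to a bound, against a median of -0.01 over all rows and -0.48 over ORFs. Without the filter 502 members were tested, of which 159 were called higher and 4 lower. Scaled by ORFs alone, the median of all rows moved to 0.48 and 109 members were called higher. The shares of all rows called under DESeq2, without the filter and scaled by ORFs are not given. The member counts of these settings thus cannot be set against the 32.2%.

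For comparison, 474 of the 929 other XUTs tested were called higher in *rrp6∆* and 9 lower, with a median log2 fold change of 1.07. Of the rows with 5 or fewer counts in *rpb1-84* in other classes, 135 of 138 cryptic unstable transcripts (CUTs) and 141 of 146 Nrd1-unterminated transcripts (NUTs) were called higher, with medians of 3.24 and 2.98. These lists were also chosen by low counts, and no test was made between them and the members.

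Comparing *rpb1-84 rrp6∆* with WT, 69 members were called higher and 4 lower, where 28.0% and 6.4% of all rows tested were called. The calls higher had log2 fold changes of 1.18 to 6.44, and the median over the 113 members was 1.83, or 1.71 with bounds, against 0.03 over all rows. Fitted over the 4 libraries of this comparison alone, 32 members were called higher, from 39 that could then be tested. Both comparisons used the same WT libraries, so the calls are given side by side only. The rule took XUTs that were low in a strain with the same *rpb1-84* allele, which favoured the calls lower.

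Among the members called higher in both comparisons, the 10 with the largest fitted rise in *rrp6∆* had no or few counts in WT. Ranking by the fitted fold change placed members at 0 counts in WT first, so their low WT counts follow from the choice. The clearest was 15F180, with 0 and 0 counts in WT, 25 and 25 in *rrp6∆*, 13 and 10 in *rpb1-84 rrp6∆*, 1 and 0 in *rpb1-84*, and 0 and 0 in *rpb4∆*. All 4 libraries labelled *rrp6∆* stood above all 6 others in CPM, the scale on which overlap between strains is judged throughout. Against a floor of 3 counts over both WT libraries it was at least 7.06-fold higher in *rrp6∆* (edgeR adjusted p = 4.3e-06). In *rpb1-84 rrp6∆* it was at least 4.08-fold higher (edgeR adjusted p = 0.00029), but it was not tested there with only the 4 libraries compared. The members of this set passed the filter only through the strains labelled *rrp6∆* and were named for their rise. Their p-values thus describe them and support nothing.

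The member with the deepest counts in this set was 4F697, with 2 and 3 counts in WT, 144 and 161 in *rrp6∆*, 94 and 67 in *rpb1-84 rrp6∆*, 1 and 4 in *rpb1-84*, and 0 and 0 in *rpb4∆*. The gap between the strains labelled *rrp6∆* and the rest was wide and no group overlapped. It rose by 4.65 ± 0.36 (SE) on the log2 scale in *rrp6∆* (edgeR adjusted p = 1.2e-13) and by 4.06 ± 0.40 in *rpb1-84 rrp6∆* (edgeR adjusted p = 6.6e-11).

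XUT 5R225 had 1 and 0 counts in WT, 34 and 29 in *rrp6∆*, 39 and 31 in *rpb1-84 rrp6∆*, 4 and 0 in *rpb1-84*, and 0 and 0 in *rpb4∆*. Both strains labelled *rrp6∆* were high, the double mutant the higher in CPM. Its 1 WT count came from replicate 1, so WT was at 0 without that library. With 1 count in WT, its ratio to WT was 26.7 (95% counting interval 4.62 to 1070) in *rrp6∆* and 37.3 (6.48 to 1494) in *rpb1-84 rrp6∆*.

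Of the other 7 members in this set, all had 0 counts in both WT libraries and both *rpb4∆* libraries, and 0 to 3 counts in each *rpb1-84* library. XUT 14R291 had 17 and 20 counts in *rrp6∆* and 11 and 3 in *rpb1-84 rrp6∆*, at least 5.22-fold and 2.49-fold higher than the WT floor, with most of its double mutant counts in replicate 1. XUT 8F76, already at 0 in *rpb1-84* and *rpb4∆*, had 15 and 14 counts in *rrp6∆* and 11 and 6 in *rpb1-84 rrp6∆*, at least 4.09-fold and 3.02-fold higher. Both were high in the strains labelled *rrp6∆*, with the double mutant below *rrp6∆*. XUT 4R592 had 12 and 12 counts in *rrp6∆* and 6 and 9 in *rpb1-84 rrp6∆*, at least 3.39-fold and 2.66-fold higher.

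In XUTs 9R141 and 9F93 the ranges of *rrp6∆* and the double mutant overlapped. XUT 9R141 had 10 and 12 counts in *rrp6∆* and 13 and 9 in *rpb1-84 rrp6∆*, at least 3.10-fold and 3.91-fold higher than the floor. XUT 9F93 had 8 and 12 counts in *rrp6∆* and 10 and 12 in *rpb1-84 rrp6∆*, at least 2.82-fold and 3.91-fold higher.

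The last 2 were less stable. XUT 5F222 had 24 and 12 counts in *rrp6∆* and 5 and 1 in *rpb1-84 rrp6∆*, at least 5.08-fold and 1.07-fold higher. Its call in *rpb1-84 rrp6∆* was lost without either WT library, without double mutant replicate 1 and under DESeq2. XUT 4F180 had 4 and 5 counts in *rrp6∆* and 13 and 9 in *rpb1-84 rrp6∆*, at least 1.27-fold and 3.91-fold higher. Its call in *rrp6∆* was lost without either WT library.

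**Figure D3:**
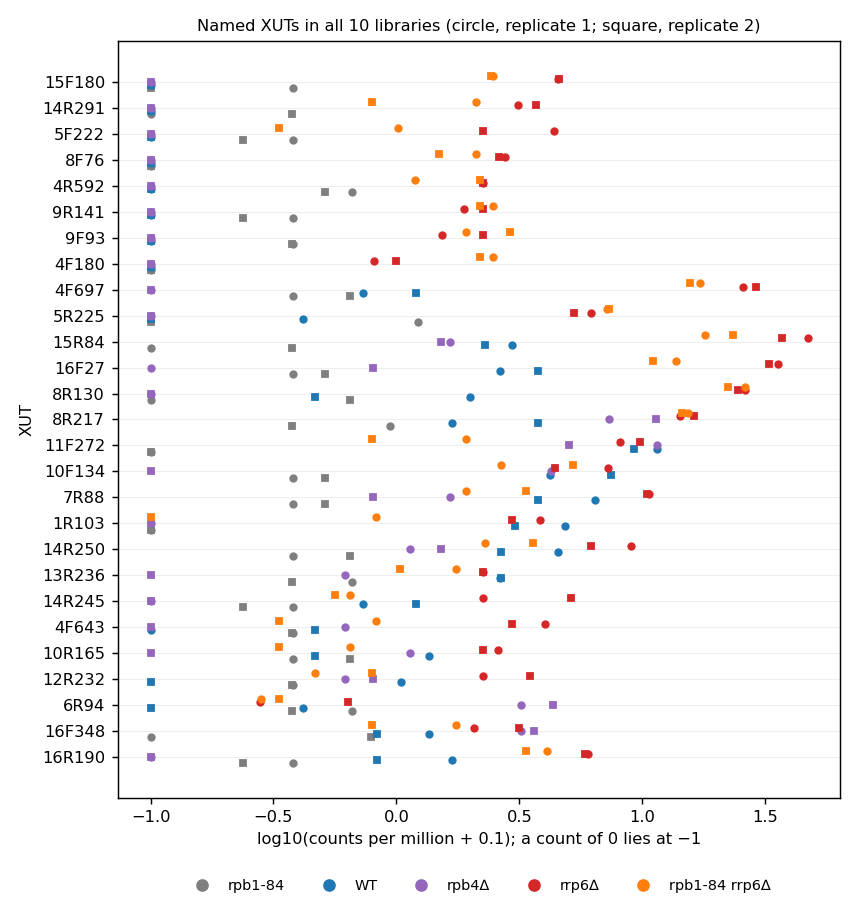
Level of each named XUT (vertical axis) in all 10 libraries, as log10 of CPM plus 0.1 (horizontal axis), where 0 counts lie at -1. Colours are strains, circles are replicate 1 and squares replicate 2. For 15F180 and 4F697 the libraries of *rrp6∆* and *rpb1-84 rrp6∆* lie apart from all others, whereas for 11F272 the WT libraries, with 36 and 25 counts, lie above those of *rpb1-84 rrp6∆*, with 10 and 3.

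The members with most counts in *rrp6∆* had low but measurable counts in WT. XUT 15R84 had 9 and 6 counts in WT, 263 and 206 in *rrp6∆*, 98 and 100 in *rpb1-84 rrp6∆*, 0 and 2 in *rpb1-84*, and 3 and 2 in *rpb4∆*. The strains labelled *rrp6∆* were both above WT and the double mutant lay between. It rose by 3.71 ± 0.27 (SE) on the log2 scale in *rrp6∆* (edgeR adjusted p = 2.8e-14). Its 689 counts over the 10 libraries were identical in every library to those of NUT1393, so its values cannot be told apart from those of that row.

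XUT 16F27 had 8 and 10 counts in WT, 199 and 182 in *rrp6∆*, 75 and 47 in *rpb1-84 rrp6∆*, 1 and 3 in *rpb1-84*, and 0 and 1 in *rpb4∆*. The same order of strains was seen, with no overlap between WT, *rrp6∆* and the double mutant. The log2 rise was 3.15 ± 0.26 (SE) in *rrp6∆* (edgeR adjusted p = 5.4e-13) and 1.84 ± 0.32 in *rpb1-84 rrp6∆* (edgeR adjusted p = 4.5e-06).

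A different profile was seen in 8R130, with 6 and 1 counts in WT, 146 and 137 in *rrp6∆*, 143 and 96 in *rpb1-84 rrp6∆*, 0 and 4 in *rpb1-84*, and 0 and 0 in *rpb4∆*. The *rrp6∆* and double mutant ranges overlapped here. Its log2 fold changes against WT were 4.07 ± 0.35 (SE) and 4.15 ± 0.36 (edgeR adjusted p = 1.8e-12 and 1.6e-12). The first was 5.71 without WT replicate 1 and 3.40 without WT replicate 2. The double mutant differed from *rrp6∆* by 0.08 ± 0.16 (edgeR adjusted p = 0.70).

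XUT 8R217 had 5 and 10 counts in WT, 79 and 90 in *rrp6∆*, 84 and 62 in *rpb1-84 rrp6∆*, 3 and 2 in *rpb1-84*, and 14 and 16 in *rpb4∆*. It was the member with most counts in *rpb4∆*, and lay above WT there. The strains labelled *rrp6∆* again overlapped each other and lay above all other strains. Its log2 fold changes against WT were 2.24 ± 0.33 (SE) and 2.36 ± 0.33 (edgeR adjusted p = 2.6e-07 and 1.4e-07), and the first was 2.92 without WT replicate 2.

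Of the 18 members with 100 or more counts over the *rrp6∆* libraries, 17 were called higher there than in WT. They were picked for high counts in *rrp6∆*, which favoured that call, so the count describes them and supports nothing. In WT the 18 had from 3 to 30 counts, and in *rpb1-84 rrp6∆* from 24 to 239. Their spread in the double mutant is shown by 11R171 and 6R66, chosen after their values were seen. XUT 11R171 had 6 and 7 counts in WT, 86 and 70 in *rrp6∆* and 22 and 12 in *rpb1-84 rrp6∆*, with 0 and 1 in *rpb1-84* and 2 and 6 in *rpb4∆*. XUT 6R66 had 5 and 2 counts in WT, 63 and 76 in *rrp6∆* and 88 and 69 in *rpb1-84 rrp6∆*, with 1 and 2 in *rpb1-84* and 0 and 0 in *rpb4∆*. The double mutant was below *rrp6∆* in the first and above it in the second, without overlap. Its log2 fold change against *rrp6∆* was -1.86 ± 0.26 (SE) in 11R171 (edgeR adjusted p = 5.9e-07) and 0.51 ± 0.19 in 6R66 (edgeR adjusted p = 0.033, no call).

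Not every member that could be seen in WT rose. Of the 14 members with more than 10 counts in WT, 7 were called higher in *rrp6∆*, 3 were called higher in *rpb1-84 rrp6∆* than in WT and 4 were called lower. The highest in WT was 11F272, with 36 and 25 counts, against 45 and 54 in *rrp6∆*, 10 and 3 in *rpb1-84 rrp6∆*, 0 and 0 in *rpb1-84*, and 22 and 7 in *rpb4∆*. It was at 0 in *rpb1-84*, and its *rpb1-84 rrp6∆* libraries lay below those of WT, *rrp6∆* and *rpb4∆*. Its log2 fold change in *rrp6∆* was -0.54 ± 0.26 (SE, edgeR adjusted p = 0.067, no call). It was -0.05 with TMM from ORFs only and -0.22 with library totals. In *rpb1-84 rrp6∆* against WT it fell by 3.11 ± 0.39 (edgeR adjusted p = 1.4e-08), or by 3.99 without double mutant replicate 1. Its counts lay within 1.98% of those of SUT242.

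XUT 1R103 was likewise low in the double mutant, with 15 and 8 counts in WT, 21 and 16 in *rrp6∆*, 4 and 0 in *rpb1-84 rrp6∆*, and 0 in all *rpb1-84* and *rpb4∆* libraries. WT and *rrp6∆* did not overlap the double mutant. It fell by 3.35 ± 0.68 (SE) on the log2 scale in *rpb1-84 rrp6∆* against WT (edgeR adjusted p = 5.8e-05). The double mutant was at 0 without its replicate 1, where the fitted value of -7.27 is no bound, and without replicate 2 the log2 fold change was -2.55. Its log2 fold change in *rrp6∆* was -0.55 ± 0.43 (edgeR adjusted p = 0.26), or -0.07 with TMM from ORFs only and -0.24 with library totals. For 11F272 and 1R103 the rule itself picked the 0 counts in *rpb1-84*. The double mutant has the same allele, so a fall against WT in a member seen in WT was favoured by the choice. This holds for all 4 members called lower than in WT, whose p-values describe them and support nothing.

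XUT 7R88 had 20 and 10 counts in WT, 59 and 58 in *rrp6∆*, 10 and 14 in *rpb1-84 rrp6∆*, 1 and 3 in *rpb1-84*, and 3 and 1 in *rpb4∆*. In CPM *rrp6∆* lay above WT and WT above the double mutant, without overlap. The log2 fold change in *rrp6∆* was 0.72 ± 0.31 (SE, edgeR adjusted p = 0.035), short of the fold needed for a call, and became a call with TMM from ORFs only, at 1.21, with library totals, at 1.04, and without WT replicate 1, at 1.19. In *rpb1-84 rrp6∆* it fell by 1.22 ± 0.41 against WT (edgeR adjusted p = 0.010), a call lost with TMM from ORFs only, without WT replicate 1 and without double mutant replicate 1.

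The other named members seen in WT were 10F134 and 14R250. XUT 10F134 had 13 and 20 counts in WT, 40 and 24 in *rrp6∆*, 14 and 22 in *rpb1-84 rrp6∆*, 1 and 3 in *rpb1-84*, and 8 and 0 in *rpb4∆*. Its log2 fold change in *rrp6∆* was -0.29 ± 0.36 (SE, edgeR adjusted p = 0.48), its sign turned with the scaling, and all 3 strains of the fit overlapped. XUT 14R250 had 14 and 7 counts in WT, 50 and 34 in *rrp6∆*, 12 and 15 in *rpb1-84 rrp6∆*, 1 and 4 in *rpb1-84*, and 2 and 2 in *rpb4∆*. Here *rrp6∆* lay above WT, and the double mutant overlapped WT. The log2 fold change in *rrp6∆* was 0.76 ± 0.37 (edgeR adjusted p = 0.062), and it passed 1 with TMM from ORFs only, at 1.24, with library totals, at 1.07, and without WT replicate 1, at 1.22. Against *rrp6∆* the double mutant fell by 1.29 ± 0.33 on the log2 scale (edgeR adjusted p = 0.0018) and was called.

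The fourth member called lower in *rpb1-84 rrp6∆* than in WT was 13R236, with 8 and 7 counts in WT, 12 and 12 in *rrp6∆*, 9 and 4 in *rpb1-84 rrp6∆*, 2 and 2 in *rpb1-84*, and 1 and 0 in *rpb4∆*. Raw counts overlapped between WT and the double mutant, and CPM did not. The fall of 1.10 ± 0.56 (SE) on the log2 scale had an edgeR adjusted p of 0.085 and lost the call under 10 of the 13 alternatives run for it.

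The effect of the *rpb1-84* allele without Rrp6 was read from *rpb1-84 rrp6∆* against *rrp6∆*. In it 35 members were called lower and 1 higher, where 6.49% and 1.95% of all rows tested were called. The log2 fold changes of the 35 ran from -2.80 to -1.03. The median over the 113 members was -0.59, against -0.02 over all rows, 0.14 over ORFs and -0.24 over the other XUTs, of which 102 were called lower and 20 higher. The rule took XUTs that were low in a strain with the same *rpb1-84* allele, so a lower level in the double mutant was favoured by the choice. The filter favoured it too, as members could pass through high *rrp6∆* counts alone. With only the WT and *rpb1-84 rrp6∆* libraries, where the cutoff also moved, 39 members were tested instead of 113. The 35 calls thus describe the tested members and support nothing about the allele. Chosen by 2 or fewer counts in WT instead, 517 XUTs gave 16 called lower and 3 higher. How many of the 517 were tested is not given, so the 16 cannot be set against 35 of 113. DESeq2 called 20 of 113 members lower and 0 higher, and without the filter 63 of 502 were lower and 3 higher. The shares of all rows called in these settings are not given. Either WT library left out gave 53 lower, as more members then passed the filter.

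**Figure D4:**
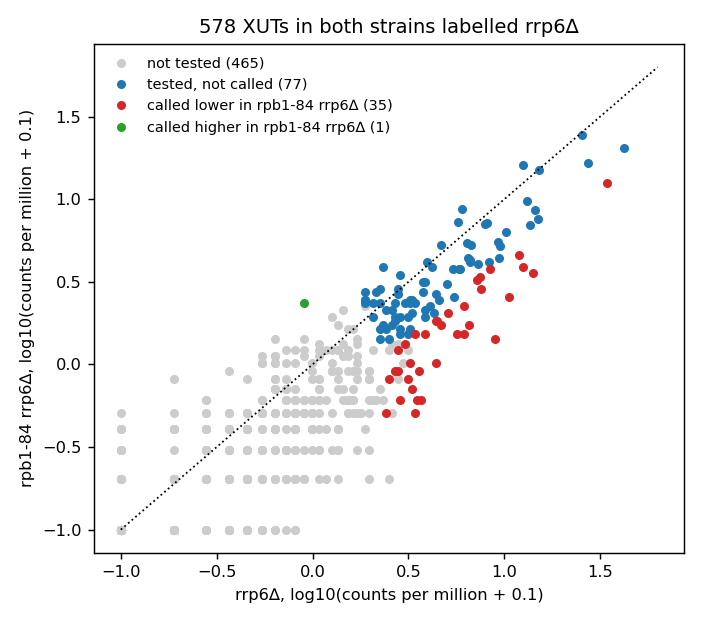
Level of the 578 XUTs in *rpb1-84 rrp6∆* (vertical axis) against *rrp6∆* (horizontal axis), both as log10 of CPM plus 0.1, with the line of equality dotted and called members coloured. The 35 members called lower lie below the line and 4F180, the 1 member called higher, lies above it.

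XUT 1R103, described above, fell by 2.80 ± 0.64 (SE) on the log2 scale (edgeR adjusted p = 0.00055), with a fitted value of -6.72 without double mutant replicate 1 and -2.002 without replicate 2. XUT 11F272 fell by 2.58 ± 0.37 (edgeR adjusted p = 7.1e-07), or by 3.45 without double mutant replicate 1, and 7R88 by 1.94 ± 0.31 (edgeR adjusted p = 4.8e-06). In 11F272 and 7R88 the double mutant and *rrp6∆* were far apart, and their values in the other strains are given above. XUTs 1R103 and 11F272 were among those named for this fall, so their p-values describe them and support nothing.

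Others had their highest counts in *rrp6∆* and were low in the double mutant. XUTs 14R245, 4F643, 10R165 and 12R232 were named for this fall and passed the filter only through *rrp6∆*, which favoured it. Their p-values against *rrp6∆* thus describe them and support nothing. XUT 14R245 had 12 and 28 counts in *rrp6∆* and 3 and 2 in *rpb1-84 rrp6∆*, with 2 and 3 in WT, 1 and 1 in *rpb1-84*, and 0 and 0 in *rpb4∆*. It fell by 2.61 ± 0.61 (SE) on the log2 scale against *rrp6∆* (edgeR adjusted p = 0.00069). XUT 4F643 had 22 and 16 counts in *rrp6∆* and 4 and 1 in *rpb1-84 rrp6∆*, with 0 and 1 in WT, 1 and 2 in *rpb1-84*, and 1 and 0 in *rpb4∆*. Both had their highest counts in *rrp6∆*, with no overlap with any other strain. The log2 fold change in 4F643 was -2.53 ± 0.59 (edgeR adjusted p = 0.00071), or -3.56 without double mutant replicate 1. Its ratio of *rrp6∆* to WT was 16.1 (95% counting interval 2.72 to 652, from 1 count in WT).

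XUT 10R165 had 14 and 12 counts in *rrp6∆* and 3 and 1 in *rpb1-84 rrp6∆*, with 4 and 1 in WT, 1 and 4 in *rpb1-84*, and 2 and 0 in *rpb4∆*. XUT 12R232 had 12 and 19 counts in *rrp6∆* and 2 and 3 in *rpb1-84 rrp6∆*, with 3 and 0 in WT, 1 and 2 in *rpb1-84*, and 1 and 1 in *rpb4∆*. Both had their highest levels in *rrp6∆*, without overlap with another strain, but 10R165 was not called against WT there (log2 fold change 1.12, edgeR adjusted p = 0.137). They fell by 2.29 ± 0.67 and 2.24 ± 0.64 (SE) on the log2 scale (edgeR adjusted p = 0.0058 and 0.0048), and 12R232 lost its call without double mutant replicate 1 (edgeR adjusted p = 0.118), where 10R165 had a log2 fold change of -3.01.

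The members with most counts in *rrp6∆* differed in this comparison. XUT 16F27 fell by 1.31 ± 0.17 (SE) on the log2 scale (edgeR adjusted p = 6.1e-08) and was called. XUT 15R84 had a log2 fold change of -0.90 ± 0.15 (edgeR adjusted p = 9.4e-06) and 4F697 one of -0.59 ± 0.16 (edgeR adjusted p = 0.0034), both short of the fold needed for a call, while 8R130 and 8R217, at 0.08 and 0.12, did not pass the test. Of the 18 members with 100 or more counts in *rrp6∆*, 5 were called lower in the double mutant, a count that their choice by high *rrp6∆* counts favoured. XUT 4F180, the 1 member called higher, had a log2 fold change of 1.58 ± 0.56 (edgeR adjusted p = 0.022). It passed the filter only through the double mutant, which favoured this call, so the p-value describes it and supports nothing. The call was lost under DESeq2 (adjusted p = 0.260) and without *rrp6∆* replicate 1. The member was not tested without double mutant replicate 1.

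In *rpb4∆*, the shallowest strain, 163 members had at least 1 count and 13 had more than 5. After 8R217 and 11F272, the most counts were those of 6R94, with 6 and 6 in *rpb4∆*, 1 and 0 in WT, 2 and 2 in *rpb1-84*, 1 and 3 in *rrp6∆*, and 1 and 1 in *rpb1-84 rrp6∆*. XUT 16F348 had 6 and 5 counts in *rpb4∆*, 4 and 2 in WT, 0 and 5 in *rpb1-84*, 11 and 17 in *rrp6∆*, and 9 and 3 in *rpb1-84 rrp6∆*. In 6R94 the *rpb4∆* libraries stood above all others, and neither member passed the filter of the fit.

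Some members had nearly the same counts as another annotated non-coding RNA. Whether they share tags was not tested. Of the 152 members with at least 30 counts, 15 had counts within 10% of those of another row (summed absolute difference over the 10 libraries), namely 8 a SUT (stable unannotated transcript), 4 a CUT, 3 a NUT and 0 an ORF. Counts were identical in every library in 4 of the 15, which were 15R84 with NUT1393, 16R190 with SUT816, 11F207 with SUT237 and 13F171 with SUT301. XUT 16R190 had 5 and 2 counts in WT, 33 and 32 in *rrp6∆*, 22 and 14 in *rpb1-84 rrp6∆*, 1 and 1 in *rpb1-84*, and 0 and 0 in *rpb4∆*. The strains labelled *rrp6∆* lay above the rest without overlap. It rose by 1.95 ± 0.49 (SE) on the log2 scale in *rrp6∆* (edgeR adjusted p = 0.00059), or by 2.63 without WT replicate 1, and by 1.43 ± 0.54 in *rpb1-84 rrp6∆* (edgeR adjusted p = 0.020). Among the members named above, 8R130 lay within 6.38% of CUT643 and 14R291 within 9.43% of SUT754.

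The genes whose products degrade or terminate such transcripts were read beside the members. A list of 28 genes covered the nuclear exosome, TRAMP, NNS, polyadenylation, decapping, Xrn1 and nonsense-mediated decay. In *rrp6∆* against WT 1 of the 28 was called higher and 2 lower, where 4.17% and 11.5% of ORFs were called, and the median log2 fold changes were -0.18 and -0.48. In *rpb1-84 rrp6∆* against WT 1 was higher and 1 lower, where 4.25% and 9.21% of ORFs were called. Both counts are near those shares and say nothing particular of the list. *NRD1*, an RNA-binding subunit of NNS, had 268 and 222 counts in WT, 1655 and 1535 in *rrp6∆* and 1305 and 982 in *rpb1-84 rrp6∆*. It did not overlap WT in either strain and rose by 1.46 and 1.31 on the log2 scale, and stayed called under each scaling tried.

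*PAP2*, the TRAMP poly(A) polymerase also called *TRF4*, and *MTR4*, the TRAMP helicase, fell by 1.04 and 1.11 on the log2 scale in *rrp6∆*. Neither was called with TMM from ORFs only (-0.55 and -0.62) or with library totals (-0.72 and -0.79). *PAP2* fell by 1.33 in *rpb1-84 rrp6∆*, a call lost with TMM from ORFs only (-0.99). Between *rpb1-84 rrp6∆* and *rrp6∆*, where 2.11% of ORFs were called higher and 1.95% lower, 0 of the 28 were called by edgeR or DESeq2. At an unadjusted p under 0.05 in edgeR, 11 were higher and 4 lower. The share of ORFs at that limit is not given, but 2643 of the 5178 ORFs tested had an edgeR adjusted p below 0.1. The 11 and 4 are thus not read as a result about the list. The log2 fold changes ran from -0.94 to 0.52. The lowest was the row of *RRP6*, labelled deleted in both strains, and the next was *DCP1* at -0.41. The part of these genes in the members' levels was not tested.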

How the data were processed

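Raw read counts per annotated feature were deposited for 10 libraries, made by the authors with FastQC, Fastx Clipper, HISAT2 (S288C, R64) and featureCounts. Tool versions, the strand setting and the treatment of overlapping features are not given in the sources used here, so reads of overlapping or antisense features may not be separable. Labels call the replicates independent. For *rpb1-84* and *rpb4∆*, libraries of their own WT are not used here.

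Members were rows with a XUT identifier and 5 or fewer counts over the *rpb1-84* libraries. Members and lists were chosen with earlier results of these data known. Libraries held 1415496 to 7268211 counts. Sums, CPM and 95% exact (Clopper-Pearson) intervals of count ratios, scaled by TMM, were computed in scipy 1.17.1, pandas 2.3.3 and numpy 2.4.6 (Python 3.11.15). A group at 0 was given a floor of 3 counts over its libraries. The 6 libraries of WT, *rrp6∆* and *rpb1-84 rrp6∆* were fitted in R 4.3.3 with edgeR 4.0.16 and limma 3.58.1 (TMM, filterByExpr, quasi-likelihood test, Benjamini-Hochberg adjustment over 9197 rows). The fit was tested on simulated data first. The simulation used a common dispersion and placed changes only in rows with more counts than most members had. It thus does not cover the low counts of most members. Calls required an adjusted p below 0.1 and a log2 fold change beyond 1 in either direction.

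Named XUTs were the 10 with the largest rise in *rrp6∆* against WT among members called higher in both strains. Also named were the 5 with most counts in *rrp6∆* and in WT, and up to 5 called lower than in WT. Further ones were the 6 and 4 with the largest called fall and rise between the double mutant and *rrp6∆*. The last were the 4 with most counts in *rpb4∆*, and up to 5 with counts identical to another row and summing to at least 100. Others are said to be chosen after their values were seen.

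Alternatives were scaling by library totals, by the RLE factors of edgeR or by TMM from ORFs only, no filter, at least 20 counts, DESeq2 1.42.0, a replicate block, only the 4 libraries compared, other limits of the rule, and each library left out.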

Additional observations from a re-analysis of the deposited data

How the results depend on the processing

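Members called higher in *rrp6∆* against WT numbered 96, and 159 without a filter. They were 42 and 173 when members were taken at 2 or fewer counts (410 XUTs) and at 10 or fewer (763 XUTs), and 87 to 115 with 1 library left out. The 0 called lower became 4 without a filter and 0 to 1 with 1 library left out. In *rpb1-84 rrp6∆* against WT, the 69 called higher became 32 with only the 4 libraries compared, 30 and 136 at limits of 2 and 10 counts, and 58 to 67 with 1 library left out. The 4 called lower became 2 with TMM from ORFs only, 9 without a filter, 2 and 11 at the other limits, and 3 to 7 with 1 library left out. In *rpb1-84 rrp6∆* against *rrp6∆*, the 1 called higher became 3 without a filter, 0 with DESeq2, 6 at a limit of 10 counts, 3 with members chosen in WT, and 0 to 2 with 1 library left out. The 35 called lower became 63 without a filter, 55 with at least 20 counts, 20 with DESeq2, 17 and 59 at the other limits, 16 with members chosen in WT, and 31 to 53 with 1 library left out. Other filters and limits change which rows are tested or counted, and the cause of the other shifts was not tested. The shares of all rows called under other filters, scalings and methods, or with libraries left out, are not given.

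The summed ratio of *rrp6∆* to WT, 4.52, became 5.83 per ORF count, 4.27 at a limit of 2 counts, 4.02 without the 5 members with most counts, and 4.33 to 4.72 with 1 library left out. That of *rpb1-84 rrp6∆* to WT, 2.66, became 3.13, 2.28 and 2.35 in the same order, 3.14 at a limit of 10 counts, and 2.57 to 2.75 with 1 library left out. That of *rpb1-84 rrp6∆* to *rrp6∆*, 0.589, became 0.537 per ORF count, 0.535 and 0.693 at limits of 2 and 10 counts, and 0.564 to 0.616 with 1 library left out. Members detected numbered 148, 316 and 46 in WT, *rpb1-84 rrp6∆* and *rpb4∆* at more than 2 counts, 14, 126 and 4 at more than 10, and 148 in WT and 77 in *rpb4∆* with minimums scaled to depth.

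The sign of 10F134 in *rrp6∆* against WT turned with TMM from ORFs only (0.20), with library totals (0.028), and with 1 library left out it ran from -0.67 to 0.15, above 0 without replicate 2 of WT or of *rrp6∆*. Replicate numbers did not pair the libraries (correlations of replicate differences between strains -0.01, -0.02 and 0.03 over 5738 features). The replicate block gave 95 members higher in *rrp6∆*, 69 higher and 3 lower in *rpb1-84 rrp6∆* against WT, and 34 lower and 1 higher against *rrp6∆*. Depth limits the 465 members that were not tested.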
